A study of Mus musculus with 18 samples.

Results

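The splicing factor genes are the 76 genes of the 12019 in the authors' deposited table whose symbols belong to 7 families: 10 SR proteins (Srsf), 18 hnRNP proteins (Hnrnp), 8 subunits of the SF3A and SF3B complexes, the 4 CLK kinases, the 2 L-type cyclins, 3 LUC7-like proteins and 31 RNA-binding motif proteins (Rbm). The rule matches gene symbols and uses no measured value, although the set was proposed with earlier results of these data known. Liver RNA of C57BL/6J mice was sequenced after 8 weeks of an intervention that began at 21 weeks of age. The labels list 18 libraries, while the design text speaks of 30 mice. The control group was fed ad libitum (6 libraries). The other 4 groups held 3 libraries each. Mice of the first ate 30% less (caloric restriction), and the rest had a compound in their chow: TM5614, which inhibits the protease inhibitor PAI-1 (daily dose 20 mg/kg), the mTOR inhibitor rapamycin (42 mg/kg) or the diabetes drug metformin (37.5 mg/kg). All groups share the strain, with no allele or transgene named, and the labels give no sex, batch or hour of collection.

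Introns are removed by the spliceosome, which is built from small nuclear ribonucleoproteins on each new transcript. SR proteins bind exons and recruit this machinery, hnRNP proteins often oppose them, and the U2 particle, of which SF3A and SF3B are parts, holds the branch site. CLK kinases phosphorylate SR proteins, and L-type cyclins activate CDK11, another kinase of the nuclear speckles where splicing factors are stored. Many of these genes limit their own messages by splicing them into forms that are kept in the nucleus or destroyed by nonsense-mediated decay, a pathway that removes messages with early stop codons. In the GENCODE vM21 annotation 9 of the 10 SR genes and all 4 CLK, 2 cyclin L and 3 LUC7-like genes carry a transcript marked for nonsense-mediated decay. Fewer do in the other classes: 8 of 18 hnRNP, 11 of 30 matched RBM and 1 of 8 SF3A and SF3B genes. Over all protein-coding members the number was 38 of 75 (50.7%), against 29.3% of the protein-coding genes with a mean of at least 10 normalized counts. Members also have more annotated transcripts, with a median of 7 against 5. The deposited values cover whole genes, so productive and unproductive forms of a message are added together in every value below.

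Each value is a group mean of counts divided by size factors (normalized counts), and each comparison is with the ad libitum control. Where 5 means of a gene are listed, their order is always control, caloric restriction, TM5614, rapamycin, metformin. No values per library could be tied to the labels, so no SD or standard error is given, and the spread between libraries enters only through the authors' adjusted p. The labels do not say that the libraries of a group came from separate mice, so this spread may in part be technical. The smallest mean above 0 was 0.315 in the control and between 0.299 and 0.322 in the other groups, which is of the same size although the control lists more libraries, so the number of libraries behind the control mean is not known. A gene is called changed where its adjusted p, as the authors' deposited table gives it, is under 0.05.

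Promoter sequence is shown for 4 members that differ in how they moved, since shared regulation is a common question for such a family. Ccnl2 was called higher under 2 interventions, Clk4 and Hnrnpa1 under 1, and Hnrnpa0 was called lower under 1. The stretches lie within the 250 bases before the RefSeq start site on the GRCm38.p6 assembly (mm10) and hold no annotated exon. That of Clk4 lies inside the longer GENCODE gene, between its exons. Capitals mark the CCAAT box, the ETS-type motif CCGGAAG and the cyclic AMP response element TGACGTCA on either strand, so the ETS-type motif of Ccnl2 and the box of Hnrnpa0 appear as their reverse complements.
Ccnl2 promoter (chr4:155812239-155812488, plus strand): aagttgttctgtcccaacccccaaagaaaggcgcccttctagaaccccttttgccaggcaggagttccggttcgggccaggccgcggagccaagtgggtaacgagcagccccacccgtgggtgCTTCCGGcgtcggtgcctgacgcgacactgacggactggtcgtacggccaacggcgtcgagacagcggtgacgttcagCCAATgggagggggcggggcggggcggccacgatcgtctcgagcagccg
Clk4 promoter (chr11:51263047-51263113, plus strand): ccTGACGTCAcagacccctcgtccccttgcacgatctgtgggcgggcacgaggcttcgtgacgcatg
Hnrnpa1 promoter (chr15:103240147-103240396, plus strand): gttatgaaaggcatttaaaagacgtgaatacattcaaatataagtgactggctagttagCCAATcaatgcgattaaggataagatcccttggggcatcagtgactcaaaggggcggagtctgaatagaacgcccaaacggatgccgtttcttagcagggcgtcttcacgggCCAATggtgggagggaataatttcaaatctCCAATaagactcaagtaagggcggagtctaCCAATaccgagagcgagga
Hnrnpa0 promoter (chr13:58128557-58128806, minus strand): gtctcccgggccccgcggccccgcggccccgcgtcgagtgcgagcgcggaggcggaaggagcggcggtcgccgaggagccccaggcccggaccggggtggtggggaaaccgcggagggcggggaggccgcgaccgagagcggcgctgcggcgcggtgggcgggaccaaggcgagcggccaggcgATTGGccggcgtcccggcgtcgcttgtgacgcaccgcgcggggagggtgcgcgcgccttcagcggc

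The Clk4 stretch has its TGACGTCA with the first base 65 bases before the start site, Hnrnpa1 has 4 copies of CCAAT, and Ccnl2 and Hnrnpa0 have 1 each, so a raised and a lowered gene share that motif. RefSeq promoter windows were found for 65 of the 76 members, 83 windows in all. CCGGAAG was found in 22 of these windows (26.5%), against 13.2% of the 10391 windows of genes with a mean of at least 10 and 6.91% of all 32851 windows. CCAAT was found in 47.0% of the members' windows, against 35.3% and 33.8%. TGACGTCA was in 2.41%, 2.52% and 1.55%, the E-box CACGTG in 8.43%, 8.38% and 6.02%, the heat shock motif GAANNTTC in 8.43%, 5.16% and 6.69%, and the TATA box TATAAA in 10.8%, 6.82% and 12.4% of the same 3 sets. Both strands were searched, windows of 1 gene can overlap, and a match describes letters only. Of the windows of members called under caloric restriction, CCGGAAG was in 3 of 13 for raised genes (Ccnl2 and Hnrnpf) and in 2 of 6 for lowered genes (Rbm43 and Srsf7). The raised members Clk1, Luc7l and Rbm3 had no window and were not searched.

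Per length, SR and hnRNP genes were the most abundant classes. Dividing the mean over the 5 groups by the length of all annotated exons gave medians of 118 normalized counts per kb for SR proteins and 114 for hnRNP proteins. The medians were 56.9 for the cyclins, 44.4 for SF3A and SF3B, 38.2 for LUC7-like proteins, 25.2 for CLK kinases and 23.9 for RBM proteins, beside 31.8 for all genes with a mean of at least 10. Hnrnpab had the highest level per length (644 per kb), followed by Hnrnpf (541), Hnrnpa2b1 (388) and Srsf5 (347). Rbm20, a regulator of titin splicing in heart muscle, had the lowest (3.07 per kb). Of the 75 members with a GENCODE match, 47 (62.7%) lay above the median of all genes. In all groups together the members took between 0.385% and 0.448% of the summed means.

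**Figure D1:**
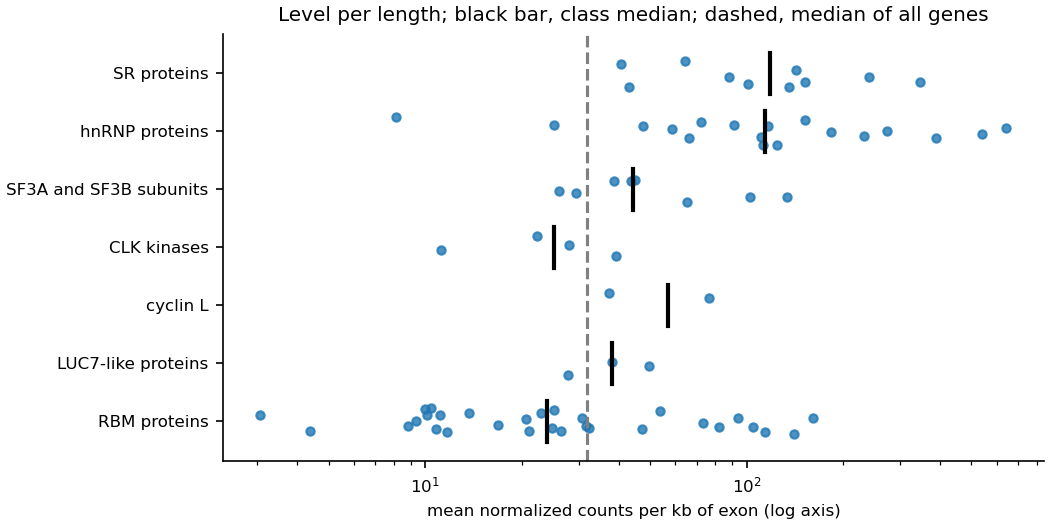
Level of each matched splicing factor gene, as the mean over 5 groups in normalized counts per kb of annotated exon (log axis), by class. Each point is a gene, black bars are class medians and the dashed line is the median of all genes with a mean of at least 10. The SR and hnRNP medians (118 and 114) lie above that line (31.8), and the CLK and RBM medians (25.2 and 23.9) lie below it.

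Under caloric restriction 9 splicing factor genes rose and 5 fell. Those that rose held the kinases Clk1 and Clk4, the cyclin Ccnl2, Luc7l, the cold-inducible Rbm3, Sf3b1 and 3 hnRNP genes. The genes that fell were Hnrnpl, Hnrnpk, Hnrnpa3, Srsf7 and Rbm43. All 76 members carry an adjusted p for this comparison, and the 14 called make up 18.4%, beside 19.0% of all 11760 genes tested. The 9 higher stand beside a background of 9.74% and the 5 lower beside 9.24%. At a mean of at least 100 the called shares were 20.0% of 65 members and 24.6% of all genes. The members' log2 fold changes by the authors' deposited table had a median of 0.12 and lay above 0 for 48 of 76. Over all genes with a mean of at least 10 the median was 0.015, and 5778 of 11201 lay above 0. At a mean of at least 100 the medians were nearer, at 0.117 for members and 0.043 for all genes. At that level 42 of 65 members and 3759 of 6762 genes lay above 0. Without the RBM class the members' median was 0.029.

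**Figure D2:**
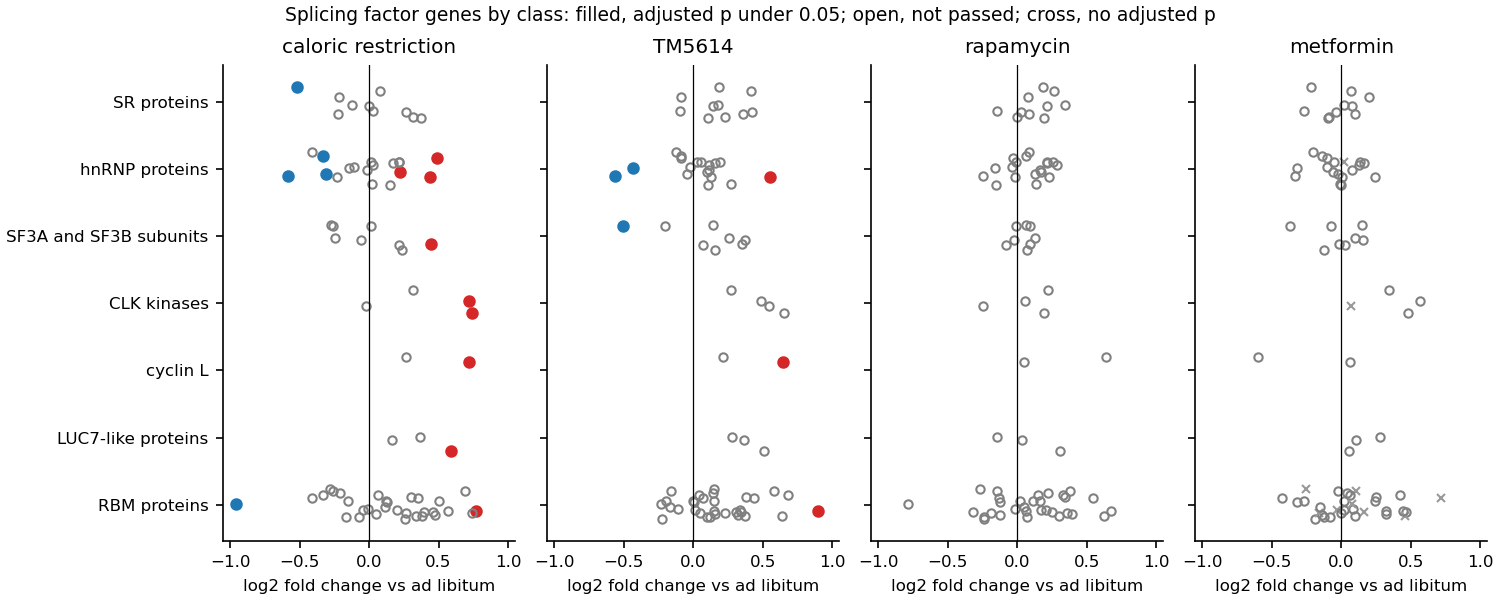
Log2 fold change of each of the 76 splicing factor genes against the ad libitum control by the authors' deposited table, with 1 panel per intervention and 1 row per class (vertical scatter within a row only separates points). Filled points passed an adjusted p of 0.05 (red higher, blue lower), open points did not pass and crosses have no adjusted p. Caloric restriction has 14 filled points, TM5614 has 6, and rapamycin and metformin have none.

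The CLK kinases phosphorylate the SR proteins, and 2 of the 4 rose under caloric restriction, beside 9.74% of all genes tested. Clk1 had authors' means of 236, 394.5, 370.5, 270 and 329. All 4 interventions thus lay above the control, and its log2 fold change under restriction was 0.74 (adjusted p = 0.0356) by the authors' deposited table. For Clk4 the authors' means were 124, 204, 174, 129 and 184. Its rise under restriction was 0.72 on the log2 scale (adjusted p = 0.00117, DESeq2 by the authors' deposited table). Clk2, at 55.7, 54.8, 81.2, 47.0 and 58.3, and Clk3, at 160, 199, 192.5, 186 and 203, are authors' means that passed in no comparison. Clk2 was thus lowest under rapamycin, and Clk3 was lowest in the control.

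Of the L-type cyclins, which partner CDK11, only Ccnl2 passed in any comparison. Its authors' means were 322, 529.5, 502, 332 and 336. Restriction and TM5614 stand apart from the other 3 groups, which lie close together. By the authors' deposited table it rose by 0.72 on the log2 scale with restriction (adjusted p = 0.00138) and by 0.64 with TM5614 (adjusted p = 0.0220). Ccnl1 had authors' means of 200, 240, 232, 311 and 132 and passed nowhere. Its ratio of the highest to the lowest group mean, 2.36, was the largest among the 76 members, with rapamycin at the top and metformin at the bottom (log2 fold changes 0.64 and -0.60, adjusted p = 0.403 and 0.833 by the authors' deposited table).

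LUC7-like proteins accompany the U1 particle at the 5′ splice site. Luc7l had authors' means of 168.5, 253, 239, 208 and 175. Under restriction it rose by 0.59 on the log2 scale (adjusted p = 0.00976), and under TM5614 it had 0.51 (adjusted p = 0.0832) by the authors' deposited table. Luc7l2 (546, 612.5, 705, 558.5 and 586) and Luc7l3 (248, 319, 300, 224 and 299) are authors' means, and neither passed.

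Sf3b1, the SF3B subunit that clamps the branch site, rose under caloric restriction. Its authors' means were 1021, 1394, 1305, 1086 and 1011, so restriction and TM5614 were again the highest groups. The log2 fold change was 0.45 under restriction (adjusted p = 0.00208) and 0.35 under TM5614 (adjusted p = 0.0645) by the authors' deposited table. The other 7 SF3A and SF3B genes did not pass under restriction, where Sf3b2 came nearest (0.21, adjusted p = 0.0656) by the authors' deposited table. Sf3a1, Sf3a2, Sf3a3, Sf3b3 and Sf3b4 had log2 fold changes between -0.27 (Sf3a3) and 0.23 (Sf3b4) under restriction by the authors' deposited table, and passed in no comparison.

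The hnRNP genes split evenly under caloric restriction, with 3 higher and 3 lower of 18. The 6 called are 33.3% of the class, beside 19.0% of all genes tested and 24.6% of those with a mean of at least 100. Hnrnpa1, which shuttles between nucleus and cytoplasm and opposes SR proteins at splice sites, had authors' means of 216, 304, 204, 213 and 202. Restriction alone lay above the control, at 0.49 on the log2 scale (adjusted p = 0.00382) by the authors' deposited table. Hnrnph1 and Hnrnpf bind runs of G, and their log2 fold changes were 0.44 (adjusted p = 0.0276) and 0.22 (adjusted p = 0.0219) by the authors' deposited table. The authors' means of Hnrnpf were 1547, 1801, 1660, 1745 and 1483.

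Hnrnpl, which binds CA repeats, was the member with the smallest adjusted p. Its authors' means were 832.5, 554.5, 563.5, 703 and 659. The control was the highest group, and restriction and TM5614 were the lowest. The log2 fold changes were -0.59 for restriction (adjusted p = 1.05e-05) and -0.56 for TM5614 (adjusted p = 4.72e-04) by the authors' deposited table. Rapamycin had -0.24 (adjusted p = 0.359) and metformin -0.34 (adjusted p = 0.302) there, by the authors' deposited table. These comparisons share their control libraries, so they are not separate evidence of a common fall.

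Hnrnpk, which binds runs of C, had authors' means of 1541, 1244, 1494, 1687 and 1517. Restriction was the lowest group, at -0.31 (adjusted p = 0.00735) by the authors' deposited table. Hnrnpa3, of the A/B group, had authors' means of 874, 696, 823, 915 and 794.5. It too was lowest under restriction, where it fell by 0.33 on the log2 scale (adjusted p = 0.0292) by the authors' deposited table. Hnrnpa2b1, the hnRNP gene with the most normalized counts, had 2588 in the control and 2207 under restriction (-0.23, adjusted p = 0.0632) by the authors' deposited table. Hnrnpu, a large scaffold-binding member, had 1419 and 1577 (0.15, adjusted p = 0.598) in the same groups of the authors' deposited table.

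Among the SR proteins Srsf7 alone passed, in 1 comparison of the 4. Srsf7, which carries a zinc knuckle beside its RNA recognition motif, had authors' means of 237, 165, 269, 270 and 204. It was lowest under restriction, at -0.52 on the log2 scale (adjusted p = 0.00157) by the authors' deposited table. Srsf5, the SR gene with the highest level, had authors' means of 1475, 1503, 1384, 1331 and 1227 and passed nowhere. Under restriction Srsf1 had -0.22, Srsf2 0.002, Srsf3 -0.12, Srsf4 0.37 and Srsf6 0.27 by the authors' deposited table, with adjusted p between 0.168 (Srsf6) and 0.995 (Srsf2). The SR class had a median of 0.014 under restriction, and the CLK class, whose products act on it, had 0.52.

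The RBM names cover proteins of many tasks, and 2 of the 31 passed under caloric restriction (6.45%, beside 19.0% of all genes tested). Rbm3, an RNA-binding protein induced by cold, had authors' means of 403.5, 687, 448, 422 and 505.5. This was the largest positive log2 fold change of a member under restriction, 0.77 (adjusted p = 0.00299) by the authors' deposited table. The related cold-inducible gene Cirbp averaged 148 in the control and 208 under restriction, and did not pass (0.49, adjusted p = 0.284) by the authors' deposited table. In the list of cold-inducible and heat shock genes 6 of 10 with an adjusted p were higher under restriction, beside 9.74% of all genes tested. All 6 were heat shock genes, led by Hspb1 (2.11) and Hsph1 (1.86) by the authors' deposited table. Exons of Rbm3 overlap the antisense gene Rbm3os, and since the strand setting of the counting is not given in the sources used here, reads of the pair cannot be told apart.

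Rbm43 had the largest fall of a member under caloric restriction, at a low level. The authors' means were 30.8, 16.0, 26.3, 17.9 and 32.6. Its log2 fold change was -0.96 under restriction (adjusted p = 0.0319), and rapamycin, with a similar mean, had -0.79 (adjusted p = 0.284) by the authors' deposited table. Rbm25, which acts with U1, had authors' means of 454, 624, 575, 539 and 625. No comparison of Rbm25 passed, although all 4 means lay above the control. Rbm10, a regulator of alternative exons, had authors' means of 153.5, 158, 171, 201 and 192 and passed in none. Rbm39, a partner of U2AF and the RBM gene with the most normalized counts before division by length, had 793, 754, 848, 832 and 726 and also passed nowhere.

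TM5614 was followed by 3 higher and 3 lower splicing factor genes. Rbm47, Ccnl2 and Hnrnph1 rose, and Hnrnpl, Sf3b5 and Hnrnpa0 fell. The 6 called are 7.89% of the 76 members, beside 3.96% of 10834 genes tested (2.01% higher and 1.95% lower). Among genes with a mean of at least 100 the shares were 9.23% of 65 members and 5.02% of all. Whether the 2 shares differ beyond chance was not tested.

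Rbm47, a cofactor of the enzyme that edits apolipoprotein B messages, had authors' means of 404, 597, 753, 643 and 548. The control was the lowest group and TM5614 the highest. Under TM5614 it rose by 0.90 on the log2 scale (adjusted p = 0.00532), the most of any member there, while restriction had 0.57 (adjusted p = 0.0579) and rapamycin 0.67 (adjusted p = 0.107) by the authors' deposited table. Hnrnph1 had authors' means of 313, 425, 459.5, 366 and 370. It rose by 0.55 under TM5614 (adjusted p = 0.0170) by the authors' deposited table.

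Sf3b5, a small subunit of SF3B, had authors' means of 180, 183, 127, 179 and 172. TM5614 stood below 4 groups that were close together, at -0.50 (adjusted p = 0.0273) by the authors' deposited table. Hnrnpa0, for which GENCODE lists 1 transcript, had authors' means of 842, 761, 625, 753.5 and 675. Its fall under TM5614 was -0.43 (adjusted p = 0.0202) by the authors' deposited table. Srsf6 (0.42, adjusted p = 0.0511) and Srsf10 (0.42, adjusted p = 0.0620), SR genes of which Srsf10 was named after its values were seen, came near without passing under TM5614 by the authors' deposited table.

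**Figure D3:**
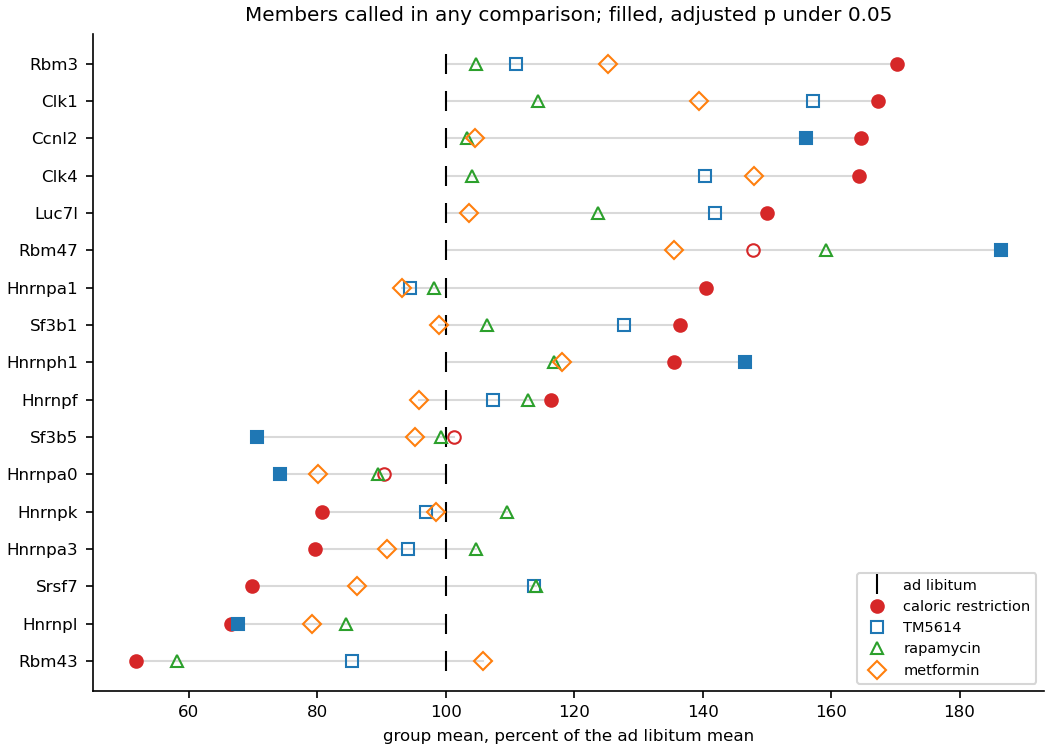
Group means of the 17 splicing factor genes called in any comparison, as a percent of the ad libitum mean (black bar at 100), ordered by the change under caloric restriction. Filled symbols passed an adjusted p of 0.05 by the authors' deposited table and open ones did not. Ccnl2, Hnrnph1 and Hnrnpl are filled for both restriction and TM5614, with Hnrnpl at 66.6 and 67.7 percent of the control.

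Under rapamycin none of the 76 members was called, and under metformin none of the 66 that have an adjusted p, by the authors' DESeq2 values. The backgrounds were 1.39% of 10369 genes for rapamycin and 0.245% of 7350 genes for metformin. Unadjusted p-values are not in the table used here, and no other test could be run. The member nearest to the threshold under rapamycin was Hnrnpab (0.29, adjusted p = 0.0736) by the authors' deposited table, whose mean went from 1653 to 2019. It was named after its values were seen. Under metformin the smallest adjusted p was that of Clk4 (0.57, adjusted p = 0.247) by the authors' deposited table. The extreme log2 fold changes were Rbm47 at 0.67 and Rbm43 at -0.79 for rapamycin, and Rbm20 at 0.72 and Ccnl1 at -0.60 for metformin by the authors' deposited table, where Rbm20 has no adjusted p for metformin.

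Large changes were absent among the splicing factor genes. No member reached 1 on the log2 scale in either direction under any intervention by the authors' deposited table, while 7.26% of genes with a mean of at least 10 did with caloric restriction. For TM5614, rapamycin and metformin the shares of all genes past 1 were 2.62%, 2.23% and 1.36%. Among all genes with a mean of at least 100 the 4 shares, in the same order, were lower, at 5.55%, 1.80%, 1.40% and 0.725%. A change of at least 0.5 in size was seen for 12 members (15.8%) under restriction beside 25.3% of 11201 genes, and for 11 members (14.5%) under TM5614 beside 14.7%. Rapamycin had 5 such members (6.58%) beside 11.0%, and metformin 3 (3.95%) beside 8.12%. The median size of the change was 0.26 for members and 0.27 for all genes under restriction, so the sets differ in the tail more than in the middle. At a mean of at least 100 the members' median size was slightly the larger in each comparison. It was 0.246 beside 0.233 under restriction, 0.175 beside 0.168 under TM5614, 0.144 beside 0.132 under rapamycin and 0.128 beside 0.110 under metformin. At that level the shares with a size of at least 0.5 were 13.8% of members and 20.1% of genes under restriction. Under TM5614 they were 12.3% and 9.66%, where the members' share was then the higher. For rapamycin they were 3.08% and 6.12%, and for metformin 3.08% and 4.07%.

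**Figure D4:**
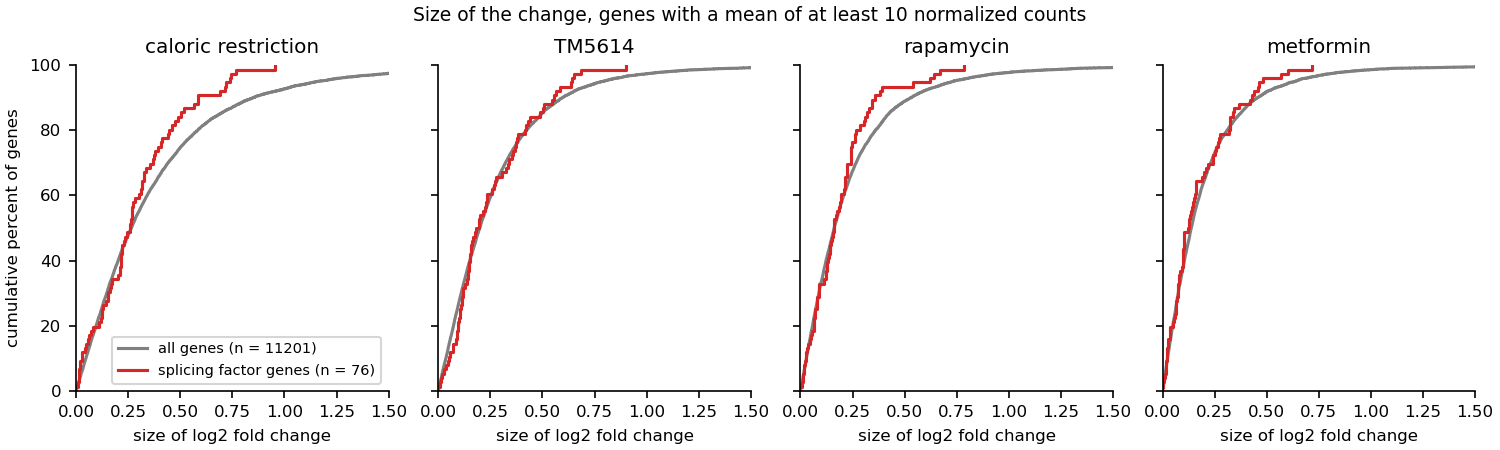
Cumulative percent of genes against the size of the log2 fold change by the authors' deposited table, for the 76 splicing factor genes (red) and all 11201 genes with a mean of at least 10 normalized counts (grey). The axis ends at 1.5, past which some grey genes lie. The curves run together at small changes, and the red curve reaches 100 percent before 1 in each panel.

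The 5 group means also show in which group each member was highest. The ratio of the highest to the lowest mean had a median of 1.35 over the 76 members, with a range of 1.08 to 2.36. At a mean of at least 100 the median was 1.34 for members, close to the 1.33 of all genes. Among members with a mean of at least 100 the control was the highest group for 4 of 65 (6.15%), beside 12.1% of 6762 genes, and the lowest for 18 (27.7%) beside 18.4%. TM5614 was highest for 16 members (24.6%) beside 15.9% of genes, and lowest for 5 (7.69%) beside 22.8%. Caloric restriction was highest for 23 (35.4%) and lowest for 18 (27.7%), close to the 35.3% and 29.4% of all genes. Metformin departed from all genes about as much as the control did, being highest for 5 members (7.69%) beside 15.0% and lowest for 18 (27.7%) beside 16.5%. Rapamycin was highest for 17 (26.2%) beside 21.8% and lowest for 6 (9.23%) beside 12.9%. Under TM5614, 58 of the 76 log2 fold changes lay above 0 (median 0.15) by the authors' deposited table, beside 5485 of 11201 genes (median -0.008). Set against the mean of the other 3 treated groups in place of the control, the median under TM5614 was 0.076 and that under restriction -0.008; all comparisons share the control means.

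**Figure D5:**
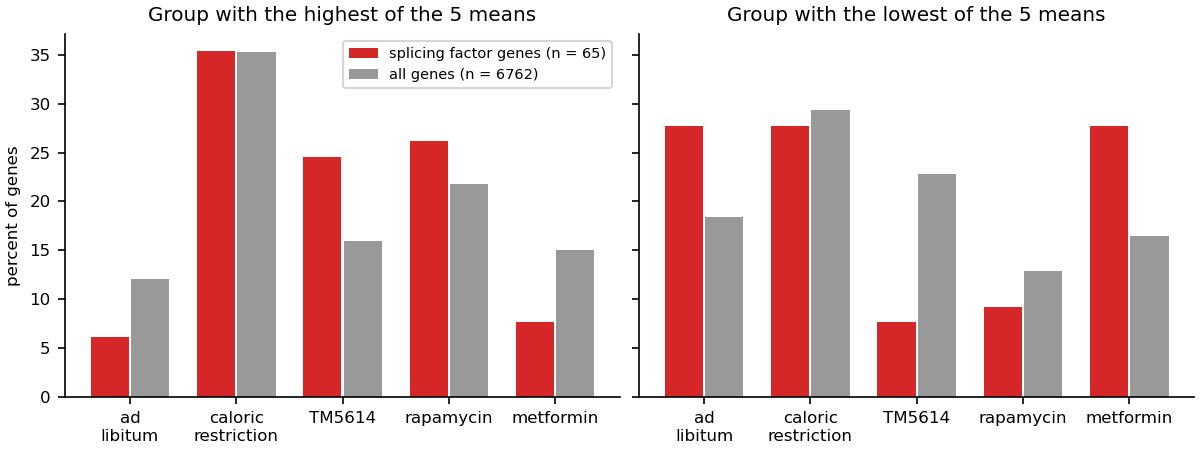
Percent of genes whose highest (left) or lowest (right) of the 5 group means falls in each group, for splicing factor genes (red, 65) and all genes (grey, 6762) with a mean of at least 100 normalized counts. Red exceeds grey for TM5614 on the left (24.6 and 15.9 percent) and falls short of it on the right (7.69 and 22.8 percent).

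The rest of the splicing machinery was described by fixed lists. Over 10 lists of other spliceosome, regulator and decay genes, 135 genes were in the table. Of these 11 were higher and 7 lower under caloric restriction (13.3% of those tested), 6 were higher and none lower under TM5614 (4.48% of 134), and none was called under rapamycin or metformin. The backgrounds are those given above, 19.0% and 3.96%.

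Of the Sm, LSm, U1 and U2 proteins that passed under caloric restriction 4 were lower and 1 higher. Among all genes tested 9.24% were lower and 9.74% higher there, and whether these lists differ from that was not tested. Of 13 Sm and LSm ring proteins 2 fell, Lsm7 (-0.70) and Snrpd3 (-0.56), and of 15 U1, U2 and branch site proteins Snrpa (-0.67) and U2af2 (-0.37) fell and Dhx15 (0.32) rose by the authors' deposited table. Snrpa is the U1-A protein and U2af2 binds the polypyrimidine tract. None of 15 tri-snRNP proteins and none of 8 exon junction complex genes passed. In the Prp19 complex and catalytic list of 21, Snw1 rose (0.50) and Prpf19 fell (-0.45) by the authors' deposited table. Of 9 minor spliceosome genes Zmat5, at a low level, fell under restriction (-0.77) and Rnpc3 rose under TM5614 (0.69) by the authors' deposited table; Zmat5 was named after its values were seen.

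Srpk1, the main cytoplasmic SR protein kinase, had authors' means of 74.8 in the control, 109 under caloric restriction and 116 under TM5614, and rose in both (0.55 and 0.63, adjusted p = 0.0214 and 0.0230 by the authors' deposited table) as the 1 gene of 9 kinases and regulators in its list to pass. Among the other sequence-specific regulators 5 rose under restriction. Mbnl2 had 0.84 under restriction (adjusted p = 1.03e-05) and 0.70 under TM5614 (adjusted p = 0.00303), and Pcbp2 had 0.56 under restriction by the authors' deposited table. Among 18 SR-related and speckle proteins Scaf11 rose under restriction (0.29), and Pnn (0.77) and Son (0.35) rose under TM5614 by the authors' deposited table. The decay kinase Smg1 rose under restriction (0.75, adjusted p = 4.46e-04) and under TM5614 (0.63, adjusted p = 0.0196) by the authors' deposited table, and Smg5 rose under restriction (0.43), among 8 genes of nonsense-mediated decay.

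Cell makeup and library measures moved beside these results. Hepatocyte markers were abundant in all groups, their summed means running from 816567 normalized counts under rapamycin to 1120838 under caloric restriction. Alb made up most of the sum, with 606485 of 891840 in the control and 858112 under restriction. Of the 8 markers 2 rose under restriction (Alb and Ass1) and 2 fell (Serpina1c and Ttr). The summed Kupffer cell and macrophage markers were 2305 in the control, 1172 under caloric restriction and 1654 to 1812 in the other groups, and 4 of the 10 with an adjusted p fell under restriction (C1qa, C1qb, C1qc and Cd5l). Marco, which has no adjusted p, had authors' means of 261.5, 32.0, 44.5, 43.6 and 27.3, and was thus 1 part of the control's higher sum. Cd5l was another, with 435.3 in the control and 173.5 under restriction. Sinusoidal endothelial markers summed to 1977, 1761, 1817, 1262 and 1379, so rapamycin and metformin were both low, and 2 of 10 fell under rapamycin and none of 9 with an adjusted p under metformin. Stellate markers summed to 3044, 3131, 2763, 2518 and 2619, so the sum under restriction was not below the control. They held 2 of 9 called lower under restriction and 1 under rapamycin. Pancreatic acinar markers summed to 404 in the control and to between 37.4 and 97.5 in the other 4 groups. Cela1 and Cela2a fell under restriction, Cela2a under TM5614 and Cela1 under rapamycin. The other acinar genes Cpa1, Ctrb1, Pnlip and Prss2 had means of 22.7 to 75.6 in the control and are listed at 0 in the other 4 groups, and this control enters every comparison. Red cell markers summed to 988, 674, 1016, 877 and 1094. Among them Alas2, the heme synthesis enzyme of red cells, had authors' means of 766, 152, 700.4, 727 and 684 and fell under restriction (-2.33, adjusted p = 4.59e-28 by the authors' deposited table). The globin genes of the list went the other way there without passing. Hba-a1 had 69.45 in the control and 128.3 under restriction, and Hba-a2 had 152.7 and 393.9, so the lower sum is that of Alas2 alone. Summed markers ranged from 7.21 to 11.8 for T and NK cells, from 23.2 to 39.1 for B and plasma cells, from 62.8 to 170 for neutrophils and from 272.5 to 412 for bile duct cells. The ribosomal RNA precursor Rn45s took 4.40% of the summed means under metformin and 0.132% to 0.555% in the other groups. The cell types in which the splicing factor genes are expressed were not measured here. Fewer cells of a type and less RNA per cell cannot be told apart in these bulk libraries. The part of these measures in the results was not tested.

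Among the 17 members called in any comparison, 7 have exons that overlap another annotated gene: Clk4, Hnrnpa3, Hnrnpf, Hnrnpk, Hnrnpl, Rbm3 and Rbm47. Hnrnpa1 and related hnRNP genes have processed pseudogene copies, so the assignment of their reads is uncertain to that extent. Positions on mm10 for the members called in both comparisons are chromosome 4 from 155812489 to 155824543 for Ccnl2, chromosome 7 from 28808541 to 28822266 for Hnrnpl and chromosome 11 from 50376990 to 50386528 for Hnrnph1. All are protein-coding genes, and their values cover the whole gene.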

How the data were processed

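Poly(A)-selected liver libraries were sequenced, per the labels' protocols. The submitters' processing notes name HISAT2 2.0.5 and mm10. Not given in the sources used here is how reads were assigned to genes, and whether by strand. The authors' deposited table holds, per the file headers, a normalized signal for each of 5 groups (by its values a mean of counts divided by size factors), and, for each of 4 interventions set against the control, an adjusted p-value and a log2 ratio. DESeq2 was run by the authors, as the table's name states, and its adjusted p was taken over all genes as they left it. Another table has 18 columns whose names match no label. None was used, so the planned limma fits gave way to the authors' values. A column headed TM5441, which no label names, was not used. The depth of each library is unknown.

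Members were matched by symbol in Python 3.11.15 with pandas 2.3.3. Of the 12019 symbols 10880, and 75 members, matched 1 gene of GENCODE vM21. Promoter windows are those of RefSeq on GRCm38.p6. Lists are described by counts and medians of genes with a mean of at least 10, beside all genes. Named are up to 10 called members in each direction with a group mean of at least 50, all CLK, cyclin L, LUC7-like and SF3A and SF3B genes, Srsf1 to Srsf7 and single members by role, members at either extreme, and up to 3 called genes per list. A result for 1 gene of the list of other sequence-specific regulators is not reported here. The members and lists were chosen with earlier results of these data known. Alternatives were other thresholds, levels, pseudocounts, centring and reference. The counting of calls was tested on simulated data whose planted values lay well past the threshold. That checks only the counting and not how reliable the calls are.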

Additional observations from a re-analysis of the deposited data

How the results depend on the processing

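At an adjusted p under 0.01 the members called numbered 9 in place of 14 under caloric restriction and 2 in place of 6 under TM5614, and at 0.1 they numbered 11 under TM5614 and 1 under rapamycin. Against the other 3 treated groups as the reference, the median log2 fold change of members was 0.076 for TM5614, 0.026 for rapamycin, -0.008 for caloric restriction and -0.075 for metformin. Without the RBM class it was 0.029 in place of 0.121 under caloric restriction. The other alternatives (a mean of at least 10, or of at least 100, which was added for counts after seeing the data, no RBM class, pseudocounts of 1 and 10, and centring on all genes) kept the counts within 1.5 times. They left the medians inside an interval for the members' median, taken from binomial ranks of the member values. That interval treats the genes as independent and does not measure the spread between mice. Of the 20 calls of single members, 11 held at 0.01. A pseudocount added to both means cannot change the sign of a call. Centring subtracted only 0.0147 under caloric restriction and -0.0079 under TM5614, so unchanged signs add no support. No paired analysis was possible because the columns tied to the labels are group means that carry no replicate numbers. For the same reason leaving out libraries and the replicate block were not run. Depth per library is unknown, and for metformin 10 members have no adjusted p.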

Other observations

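Long noncoding RNAs of nuclear speckles and paraspeckles were read beside the splicing factors. Malat1 had authors' means of 1099, 1400, 1195, 1183 and 1748 (control, caloric restriction, TM5614, rapamycin, metformin), and passed in no comparison. Neat1 had authors' means of 853, 1189, 1528, 508 and 597 in the same order, so that TM5614 was highest and rapamycin lowest, and it passed in none (adjusted p = 0.105 for TM5614 by the authors' deposited table). A list of 10 genes held cyclins and kinases that act on RNA polymerase II, and Polr2a, its largest subunit. Polr2a was the 1 gene called, higher under caloric restriction (0.61, adjusted p = 1.94e-04 by the authors' deposited table). No cyclin or kinase of this list passed.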
